A study of Mus musculus with 9 samples.

Results

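The ovaries of mice heterozygous for Taf4b were set against those of wild-type mice, both aged 3 weeks. The members are 6 of the 9 arrays of the study, chosen by title, with 3 arrays titled TAF4b heterozygote and 3 titled wild type. All 25100 probe sets with a gene symbol, of 28266 on the array, were compared. Affymetrix Mouse Gene 1.0 ST arrays measured whole-ovary RNA, with 1 mouse per array, and the error of a genotype is thus the variation among its mice. The heterozygotes carry 1 mutant and 1 wild-type copy of Taf4b, and the wild types carry neither a mutant copy nor any other listed allele or treatment. The other 3 arrays are labelled TAF4b knockout and enter the fit as a further group for the estimate of spread. The sources used here do not state the structure of the mutant allele, the strain or whether the mice were littermates. Values below are linear intensities in mice 1, 2 and 3 of each genotype, differences are log2 intensity of heterozygote minus wild type, and errors on them are standard errors from limma.

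TAF4B, most abundant in ovary and testis, is a component of TFIID, the complex that recognises core promoters and helps to place RNA polymerase II. Mice without it are known for early loss of oocytes and for infertility in females, while heterozygous females are commonly bred as carriers. The ovary at this age is prepubertal, with growing follicles in which an oocyte is wrapped in granulosa cells and theca cells, and without corpora lutea. The comparison asks whether the loss of 1 copy of Taf4b changes transcript levels in such an ovary.

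The array of heterozygote 1 stood apart from the other 5. Its Pearson correlation with them across probe sets was 0.9902 to 0.9919, and the other pairs among the 6 arrays correlated at 0.9949 to 0.9977. On it, 207 tested probe sets lay more than 2-fold from the median of the other arrays, 200 of them above, against 8 and 28 on the arrays of heterozygotes 2 and 3 and 5 to 7 on the wild-type arrays. In a fit that weights arrays by their spread it received 0.40, the lowest weight of the 9, and wild type 2 received 2.30, the highest. Values without heterozygote 1 are therefore set beside the results that its removal moved most. Median intensities of the tested probe sets lay between 152 and 154.6 in the heterozygotes and between 155.5 and 158.2 in the wild types.

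The tissue label held by its defining markers. Granulosa and oocyte genes were bright on all arrays, with 10485, 9721 and 9648 for the inhibin subunit gene Inha in the heterozygotes, against 9754, 9716 and 9885 in the wild types, and 3208, 2836 and 2485 for the zona pellucida gene Zp3, against 4469, 3700.4 and 3173. Genes of the male gonad summed to 2413, 2257 and 2249 over 12 genes in the heterozygotes, against 2464, 2269 and 2374 in the wild types. That list shares Mro with the granulosa list and Dhh with the hedgehog list, so its sum does not check the label.

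Taf4b itself, on mouse chromosome 18, did not separate the genotypes. Its single probe set read 456, 595 and 574 in the heterozygotes, against 494, 635 and 723 in the wild types, and the arrays overlapped. The means were 542 ± 75.00 in heterozygotes and 617 ± 116 in wild types (SD, n = 3 mice each). The difference was -0.18 ± 0.23, with an exact two-sided permutation p of 0.4, where 3 against 3 arrays cannot go below 0.1. Without heterozygote 1 it was -0.06. The arrays labelled knockout read 332, 626 and 403, so the array labelled knockout 2 carried a wild-type level of this transcript. The sources used here do not place the probe set relative to the mutation, and one outside the deleted part would check nothing.

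In limma, 0 of 25100 probe sets passed an adjusted p of 0.05 (0% called), and the smallest adjusted p was 0.815. At an unadjusted p under 0.05 there were 762 lower probe sets (3.04%) and 681 higher ones (2.71%), 1443 in all (5.75%). The total was 2211 with array weights and 911 without wild type 1. The arrays of the genotypes did not overlap at 1614 probe sets that were lower in heterozygotes (6.43%) and at 1037 that were higher (4.13%), 10.6% together. These shares are the background for the counts of every gene list below. On simulated data made from these arrays, the same fit found 66.5% of probe sets changed by 1.5-fold, 91.1% of those changed by 2-fold and 98.5% of those changed by 3-fold, and 4.88% of its calls were false. The simulated noise was independent between probe sets and arrays, with 200 changed probe sets planted. No simulated array stood apart as heterozygote 1 does. These shares therefore do not give the share of real changes that the fit would find here.

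The direction of the small differences depended on brightness. With the probe sets split by mean intensity into 4 bins of 6275, the brightest bin held 192 lower and 35 higher at an unadjusted p under 0.05, and the next brightest 302 lower and 62 higher. The dimmest bin held 85 lower and 307 higher. Heterozygote 1 took part in this, since its first quartile of intensity was 48.5, against 45.0 and 45.4 in heterozygotes 2 and 3 and 43.7 to 45.0 in the wild types. Without heterozygote 1 the counts were 149 lower and 97 higher in the brightest bin, and 146 lower and 212 higher in the dimmest. Without it, 0 probe sets passed an adjusted p of 0.05, with a smallest adjusted p of 0.0761 at Adipoq in limma, and 725 lower and 726 higher had an unadjusted p under 0.05 (2.89% each).

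**Figure D1:**
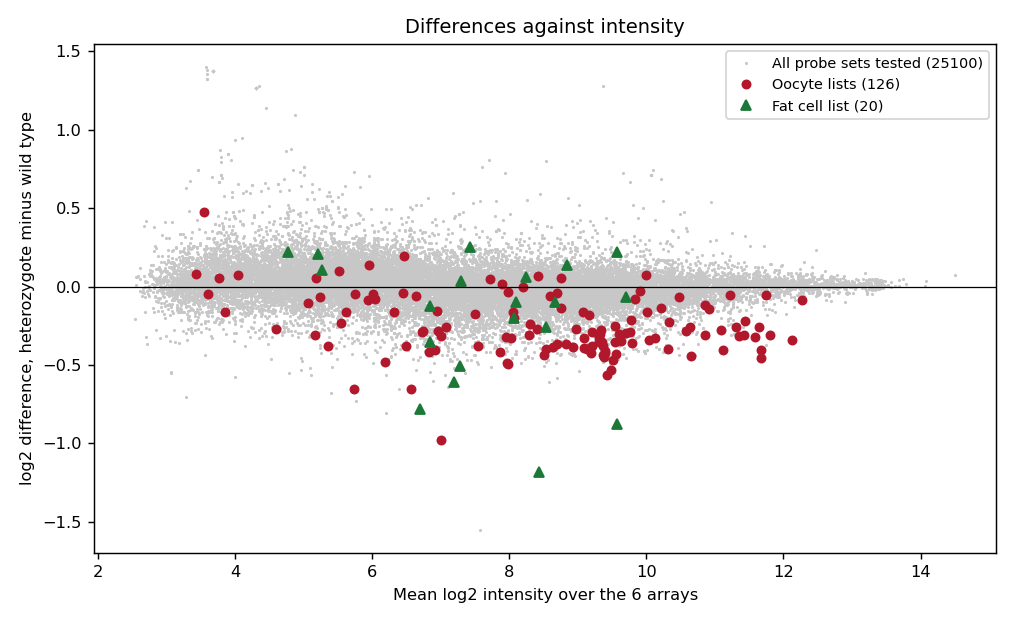
Each point is a probe set, with its mean log2 intensity over the 6 arrays on the x axis and its log2 difference, heterozygote minus wild type, on the y axis. Grey points are all 25100 tested probe sets, red circles are the 126 genes of the oocyte lists, of which 113 lie below 0, and green triangles are the 20 genes of the fat cell list.

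Oocyte genes formed the broadest set of lower values in heterozygous ovaries. Of 126 genes in 9 oocyte lists, 113 lay below wild type and 13 above, and their median difference was -0.28, against 0.00 for all tested probe sets. All 3 heterozygotes lay below all 3 wild types at 58 of them (46.0%, where 6.43% of all probe sets did so), and 35 had an unadjusted p under 0.05 in that direction (27.8%, against 3.04%). The opposite separation was seen at 2 genes, and 1 had an unadjusted p under 0.05. None of the 126 passed the adjusted p. Without heterozygote 1 the median was -0.29, and 19 genes had an unadjusted p under 0.05 on the lower side, against 35 with it. The non-overlapping genes were then 68 (54.0%, where 12.5% of all probe sets were so), a separation that fewer arrays reach more easily. In whole-ovary RNA, fewer cells of a type and less RNA per cell cannot be told apart.

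Members of these lists are mostly expressed in the same cell, so their values are not independent of each other. As a mean over the 126 genes, the log2 difference from the wild-type mean was -0.23, -0.20 and -0.32 in heterozygotes 1, 2 and 3, against 0.11, 0.02 and -0.13 in wild types 1, 2 and 3. Thus wild type 3 was the lowest and wild type 1 the highest of its group, and no heterozygote lay within the range of the wild types. The arrays labelled knockout, compared with the same wild types, stood at -0.16, -0.50 and -0.11. The share without overlap differed by brightness. In the brightest bin 56.7% of the oocyte genes were non-overlapping and lower, against 8.81% of all probe sets, and in the next brightest 62.1%, against 9.86%. In the bin below these shares were 21.7% and 5.16%, and in the dimmest 7.14% and 1.88%.

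**Figure D2:**
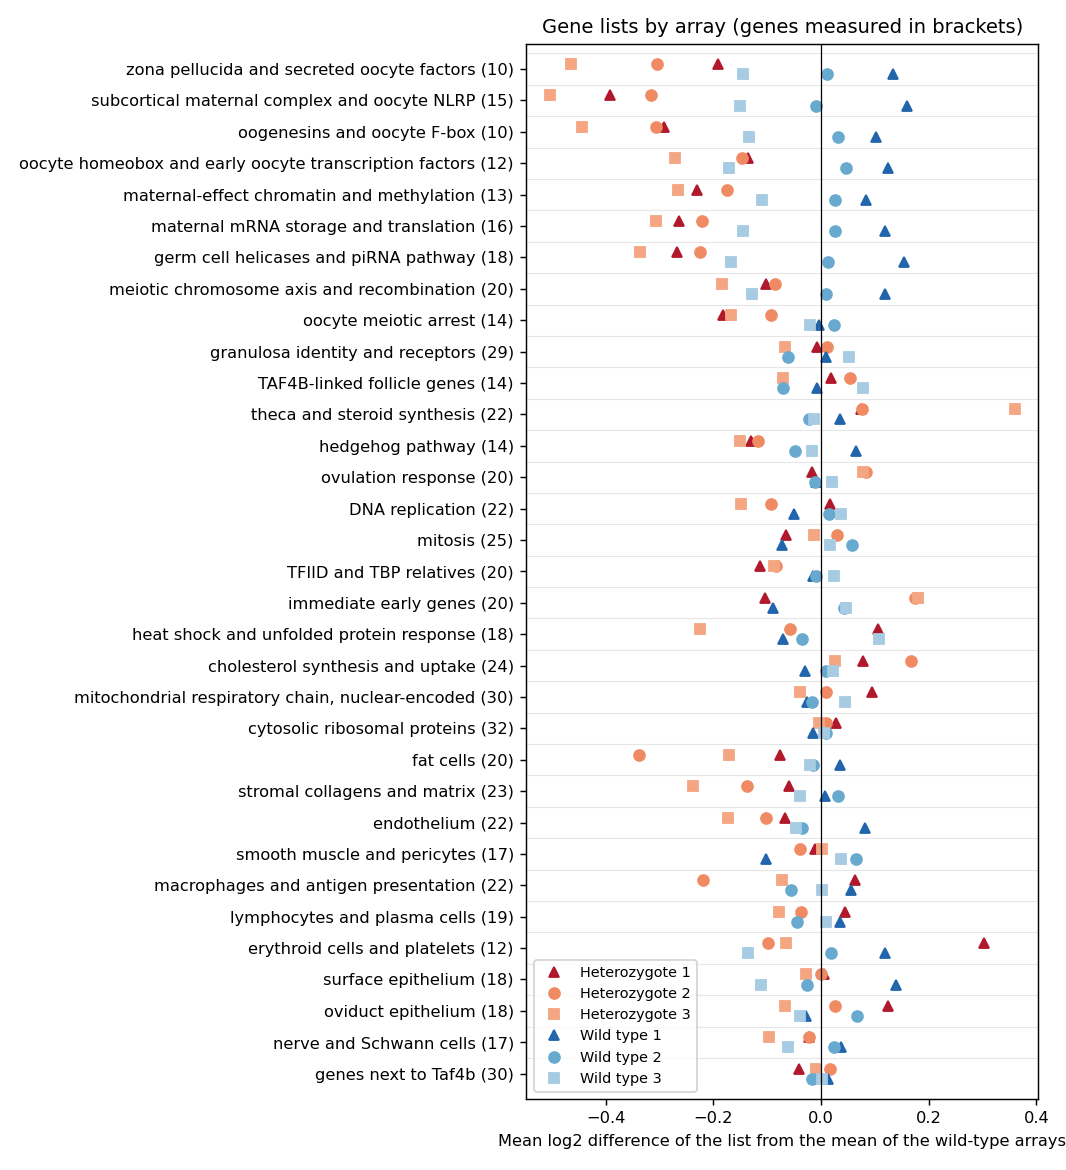
Each row is a gene list, with the number of genes measured in brackets. Points show the mean log2 difference of the list from the mean of the wild-type arrays, with heterozygotes 1 to 3 in red tones above and wild types 1 to 3 in blue tones below. In the top 3 lists all red points lie left of the blue ones, in the fourth, of oocyte transcription factors, they overlap, and the points of the granulosa list stay within 0.07 of the line.

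The promoters of 6 oocyte genes are shown because TFIID binds core promoters and these genes are described below with their values. The sequences run from 250 bases before to 50 bases after the transcript start in RefSeq, build GRCm38.p6, 5′ to 3′ on the strand of the gene. Capitals mark E-boxes, CANNTG, the element that basic helix-loop-helix factors such as FIGLA bind.
Oog3: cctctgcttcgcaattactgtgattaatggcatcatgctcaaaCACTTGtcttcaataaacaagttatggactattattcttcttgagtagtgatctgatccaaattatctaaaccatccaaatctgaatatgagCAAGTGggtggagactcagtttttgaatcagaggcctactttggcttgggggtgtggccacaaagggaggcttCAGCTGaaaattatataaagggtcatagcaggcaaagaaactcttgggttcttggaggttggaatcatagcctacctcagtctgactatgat
Bmp15: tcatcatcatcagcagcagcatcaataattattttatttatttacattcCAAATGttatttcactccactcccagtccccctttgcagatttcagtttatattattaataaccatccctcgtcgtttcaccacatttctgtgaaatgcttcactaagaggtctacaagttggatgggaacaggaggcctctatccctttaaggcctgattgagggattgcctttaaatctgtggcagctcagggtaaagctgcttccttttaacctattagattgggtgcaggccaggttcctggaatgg
Nobox: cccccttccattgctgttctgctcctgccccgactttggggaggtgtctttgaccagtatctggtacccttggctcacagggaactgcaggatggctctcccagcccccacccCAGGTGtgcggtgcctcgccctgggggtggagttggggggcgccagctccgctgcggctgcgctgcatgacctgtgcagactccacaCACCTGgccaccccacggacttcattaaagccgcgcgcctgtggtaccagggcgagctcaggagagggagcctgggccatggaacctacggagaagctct
Nlrp5: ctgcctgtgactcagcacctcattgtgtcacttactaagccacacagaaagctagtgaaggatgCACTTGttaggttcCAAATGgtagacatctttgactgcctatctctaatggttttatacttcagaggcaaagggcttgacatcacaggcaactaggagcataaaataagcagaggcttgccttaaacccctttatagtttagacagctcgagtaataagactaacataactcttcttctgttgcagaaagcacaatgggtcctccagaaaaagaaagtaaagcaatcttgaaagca
Mael: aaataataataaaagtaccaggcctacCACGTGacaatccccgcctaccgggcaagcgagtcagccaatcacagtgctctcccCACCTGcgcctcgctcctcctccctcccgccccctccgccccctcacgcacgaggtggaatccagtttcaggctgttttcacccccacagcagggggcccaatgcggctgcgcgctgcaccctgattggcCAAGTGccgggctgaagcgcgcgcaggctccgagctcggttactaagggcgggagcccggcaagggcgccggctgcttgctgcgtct
Ddx25: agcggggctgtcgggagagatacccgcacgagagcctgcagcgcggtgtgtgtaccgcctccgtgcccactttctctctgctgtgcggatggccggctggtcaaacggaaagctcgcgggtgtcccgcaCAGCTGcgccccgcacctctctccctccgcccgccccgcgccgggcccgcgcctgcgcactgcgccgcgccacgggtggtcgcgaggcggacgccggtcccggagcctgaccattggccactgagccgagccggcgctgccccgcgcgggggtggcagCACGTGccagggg
They lie at chr4:144162602-144162901 (- strand) for Oog3, chrX:6320675-6320974 (- strand) for Bmp15, chr6:43309505-43309804 (- strand) for Nobox, chr7:23403852-23404151 (+ strand) for Nlrp5, chr1:166238695-166238994 (- strand) for Mael and chr9:35558421-35558720 (- strand) for Ddx25. The E-box count was 3 at Oog3, 1 at Bmp15, 2 at Nobox, 2 at Nlrp5, 3 at Mael and 2 at Ddx25.

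On these windows CANNTG, which reads as the same motif on both strands, was found in 72.1% of 27025 RefSeq promoters, in 76.9% of the 104 promoters matched to oocyte-list genes and in 88% of the 50 matched to oocyte-list genes whose arrays did not overlap below. TATAAA, searched on both strands, was found in 14.2%, 9.62% and 14% of the same sets. TAATTA or TAATTG, the core that NOBOX prefers, stood in 12.6%, 11.5% and 14%, on either strand. A match describes letters only and is not a measured binding site.

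Among genes for the egg coat and for secreted factors, all 10 measured genes lay below wild type, 6 without overlap and 3 with an unadjusted p under 0.05, at a median of -0.32. Bmp15, whose product is an oocyte growth factor that acts on granulosa cells, read 2162, 2493 and 2354 in the heterozygotes, against 3229, 2917 and 2602 in the wild types, a difference of -0.32 ± 0.12. The groups did not overlap. Gdf9, its closest relative, read 1760.4, 1720.1 and 1514, against 2307, 2133 and 1777 (-0.31 ± 0.17), where heterozygote 1 lay just under wild type 3. The zona pellucida genes stood at -0.40 ± 0.21 for Zp1, -0.32 ± 0.18 for Zp2 and -0.40 ± 0.20 for Zp3, and only Zp1 was free of overlap among them. Oosp2, an oocyte-secreted protein gene, read 372, 361 and 366, against 502, 486 and 432 (-0.37 ± 0.15). Heterozygote 1 was the highest heterozygote at Zp1, Zp2, Zp3 and Gdf9, and without it the median of the list was -0.38.

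The subcortical maternal complex is an assembly of proteins under the egg surface that early embryos need, and many NLRP genes are expressed in oocytes beside it. All 15 measured genes of this list lay below wild type, 12 of them without overlap, at a median of -0.38. Nlrp5, also called Mater, read 2778, 3093 and 2493 in the heterozygotes, against 4357, 3867 and 3278 in the wild types (-0.46 ± 0.21). Nlrp9b read 555, 641 and 508, against 919, 721 and 881 (-0.56 ± 0.18). Every heterozygote lay below every wild type at both. At Nlrp4e heterozygote 1 alone carried much of the difference of -0.98 ± 0.45, with 53.1, 124 and 116 in the heterozygotes, against 186, 161 and 197 in the wild types, and -0.59 without it. Nlrp4a stood at -0.41 ± 0.17, Nlrp9c at -0.38 ± 0.15 and Nlrp9a at -0.31 ± 0.14, all 3 without overlap.

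The oogenesins are oocyte-expressed members of the PRAME-like family, and the Fbxw genes listed with them encode F-box proteins found in oocytes. All 10 measured genes lay below wild type, 9 without overlap and 5 with an unadjusted p under 0.05, at a median of -0.33. Oog3 read 209.6, 226 and 226 in the heterozygotes, against 290.1, 295 and 246 in the wild types (-0.32 ± 0.09). Oog4 read 1088, 1167 and 1091, against 1656, 1473 and 1290.5 (-0.40 ± 0.13). In both genes wild type 3 was the lowest wild type and still above every heterozygote. Oog1 stood at -0.26 ± 0.11 and Oog2 at -0.32 ± 0.12, but these have several probe sets and near-identical copies, so reads of one copy by the probes of another cannot be told apart.

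Transcription factors of early oocytes were less uniform. Of 12 measured genes 11 lay below wild type, 4 without overlap, at a median of -0.24. Nobox, a homeobox regulator of the transition from primordial to growing follicles, read 603, 646 and 545 in the heterozygotes, against 1021, 911 and 689 in the wild types (-0.53 ± 0.19), with no overlap. Figla, the regulator of zona genes, read 96.9, 79.2 and 82.6, against 101, 91.03 and 74.9 (-0.04 ± 0.19), and the groups overlapped. Its sign changed to 0.02 without heterozygote 2 and to 0.06 without wild type 1. Sohlh2 stood at -0.28 ± 0.19 and Obox5 at -0.28 ± 0.18. Obox6 was the exception above wild type, with the dim values 16.7, 13.2 and 11.98 in the heterozygotes, against 9.55, 11.03 and 9.29 in the wild types (0.48 ± 0.19).

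**Figure D3:**
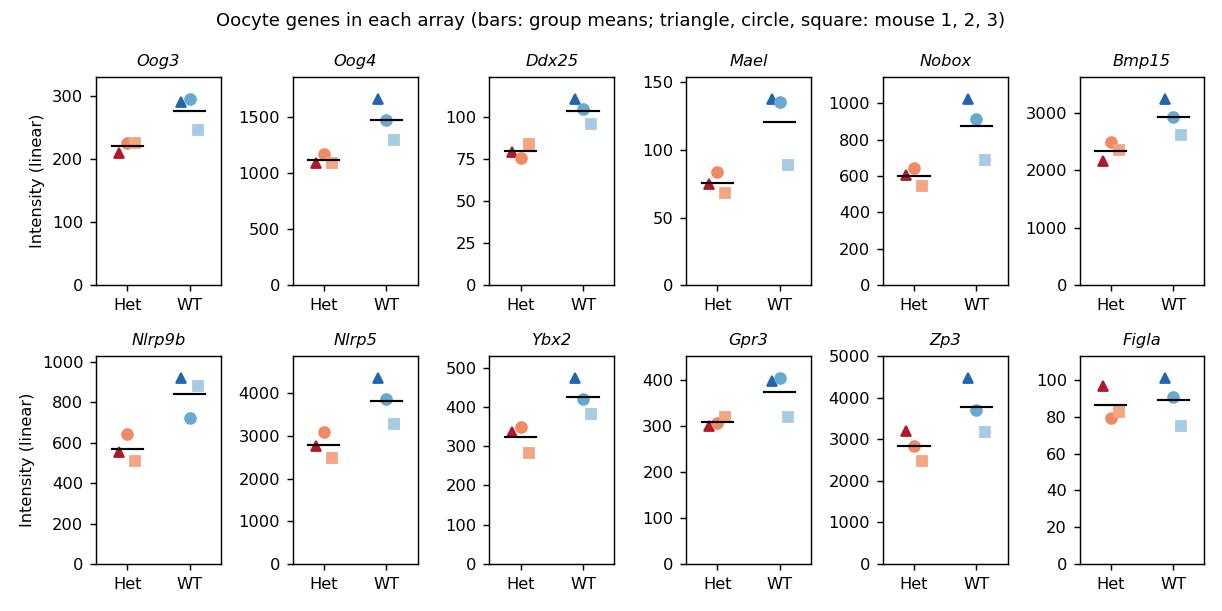
Linear intensity of 12 oocyte genes in each array, with heterozygotes on the left and wild types on the right of each panel. The triangle, circle and square are mice 1, 2 and 3, and the bar is the mean of 3. In the panels of Oog3, Oog4, Ddx25, Mael, Nobox, Bmp15, Nlrp9b, Nlrp5 and Ybx2 the groups do not overlap, and in those of Gpr3, Zp3 and Figla they do.

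Maternal chromatin and DNA methylation genes lay below wild type at 13 of 13, 6 without overlap, at a median of -0.28. Dnmt1, the maintenance DNA methyltransferase, read 2339, 2675 and 2369.8 in the heterozygotes, against 3436, 3064 and 2686 in the wild types (-0.31 ± 0.12). H1f8, the oocyte linker histone, read 566, 585 and 566, against 850.5, 823 and 680.5 (-0.45 ± 0.18). Neither gene overlapped between the groups. Dppa3, a guard of maternal methylation also called Stella, overlapped at -0.33 ± 0.22. Zfp57, which keeps imprints, stood at -0.28 ± 0.12 and Kdm1b, a histone demethylase needed for maternal imprints, at -0.35 ± 0.16.

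The genes that store and translate maternal messenger RNA lay below wild type at 16 of 16, 8 without overlap and 6 with an unadjusted p under 0.05, at a median of -0.27. Ybx2, which packages messages in germ cells, read 336, 349 and 284 in the heterozygotes, against 473, 421 and 382 in the wild types (-0.40 ± 0.14). Patl2, a translational repressor of growing oocytes, read 231, 216 and 194, against 352, 288 and 266 (-0.49 ± 0.18). Both were free of overlap. Cpeb1, which controls cytoplasmic polyadenylation, stood at -0.43 ± 0.17 and Pabpc1l, an oocyte poly(A)-binding protein gene, at -0.33 ± 0.12.

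Among germ cell helicases and genes of the piRNA pathway, which silences transposons, 15 of 18 lay below wild type, 9 without overlap and 7 with an unadjusted p under 0.05, at a median of -0.34. Mael read 74.98, 83.4 and 68.1 in the heterozygotes, against 137, 135 and 88.8 in the wild types (-0.65 ± 0.20). Ddx25, a germ cell RNA helicase gene, read 79.1, 75.5 and 83.6, against 110.2, 104 and 95.7 (-0.38 ± 0.09), the smallest unadjusted p of the list. Wild type 3 was the lowest wild type at both, and no heterozygote reached it. Tdrd9 stood at -0.31 ± 0.12, Asz1 at -0.42 ± 0.17 and Ddx4, also called Vasa, at -0.49 ± 0.20. Of the 3 genes above wild type, Tdrd6, Piwil4 and Pld6, the largest difference was 0.10 ± 0.09 at Piwil4.

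Genes of the meiotic chromosome axis and recombination, used before birth in oocytes, had a median of -0.07, with 15 of 20 below wild type and 1 free of overlap on that side. That count of 1 is not above the 6.43% of all probe sets. On the higher side 1 was free of overlap (4.13% of all probe sets). An unadjusted p under 0.05 was seen at 3 lower genes (3.04%). Sycp2, an axis component, read 33.1, 38.2 and 36.3 in the heterozygotes, against 50.5, 48.03 and 41.6 in the wild types (-0.38 ± 0.12), without overlap. Sycp3, its partner, read 47.6, 41.6 and 39.01, against 97.2, 74.7 and 41.6 (-0.66 ± 0.26). There wild type 1 and wild type 2 were high and wild type 3 lay among the heterozygotes.

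Signals that hold oocytes in meiotic arrest stood at a median of -0.14, with 10 of 14 below wild type and 4 without overlap. Gpr3, a receptor of the oocyte that keeps cyclic AMP high, read 301, 306 and 321 in the heterozygotes, against 399, 405 and 321 in the wild types (-0.27 ± 0.09). Heterozygote 3 and wild type 3 both read exactly 321.273, as did the arrays labelled knockout 1 and 3. The reason for this tie was not tested. Pde3a, the phosphodiesterase that breaks this cyclic AMP down, read 284, 336 and 317, against 475, 415 and 378 (-0.43 ± 0.17). Wee2, an oocyte kinase that restrains CDK1, read 530.2, 599 and 617, against 841, 836 and 669 (-0.42 ± 0.17). The groups did not overlap at Pde3a or Wee2, and Mos, the oocyte kinase upstream of MAPK, stood at -0.38 ± 0.15.

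Granulosa genes stood near 0. Of 29 genes for granulosa identity and receptors, 15 lay below and 14 above wild type, at a median of -0.01, and 0 had an unadjusted p under 0.05. Hsd17b1, an estrogen-forming enzyme gene, was the member whose groups did not overlap, with 4007, 3787 and 3606 in the heterozygotes, against 3339.7, 3527 and 3424 in the wild types (0.15 ± 0.20). Igfbp5 stood at -0.15 ± 0.10 and Wt1, a transcription factor of granulosa cells, at -0.13 ± 0.09, both with overlap. The list's mean difference from the wild-type mean was -0.01, 0.01 and -0.07 in the heterozygotes, against 0.01, -0.06 and 0.05 in the wild types.

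Of 14 genes that have been linked to TAF4B in follicles, such as Inhba for an activin subunit, Ccnd2 for cyclin D2 and the AP-1 gene Jun, 8 lay below and 6 above wild type, at a median of -0.04, and 0 were free of overlap. Inhba read 1981, 1576 and 913 in the heterozygotes, against 1259, 974 and 1676 in the wild types (0.16 ± 0.56), so the mice within each genotype differed by more than the genotypes did. Ccnd2 read 6391, 5949 and 6260.1, against 6712, 6329.6 and 6158 (-0.05 ± 0.06). Fos, a partner of Jun, read 119, 219.6 and 199, against 105, 137 and 143 (0.45 ± 0.22). Heterozygote 1 lay inside the wild-type range, and without it the difference was 0.72.

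Theca and steroid synthesis genes stood at a median of 0.07, with 7 of 22 below and 15 above wild type. Free of overlap were 3 above (4.13% of all probe sets) and 1 below (6.43%), and 0 had an unadjusted p under 0.05 (5.75%). The mean difference of the list from the wild-type mean was 0.07, 0.08 and 0.36 in heterozygotes 1, 2 and 3, against 0.03, -0.02 and -0.01 in the wild types. All 3 heterozygotes thus lay above the wild types, and heterozygote 3 stood far above the other 2. Cyp17a1, which makes androgens in theca cells, read 511, 662 and 3188 in the heterozygotes, against 419, 536 and 338 in the wild types (1.28 ± 0.92). Star, which carries cholesterol into mitochondria, read 181, 163 and 545, against 221, 141 and 106 (0.76 ± 0.49). Of the 6 arrays, heterozygote 3 alone was high at both genes. The array labelled knockout 2 was high too. The arrays labelled knockout read 555, 3924 and 362 at Cyp17a1 and 247, 486 and 228 at Star. Their list means stood at 0.22, 0.655 and 0.16 from the wild-type mean. Fdxr, the ferredoxin reductase gene of steroid synthesis, was above wild type in every heterozygote, with 689, 695 and 813, against 614, 619.5 and 620.2 (0.24 ± 0.11).

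Hedgehog ligands come from granulosa cells and act on theca precursors through the receptor PTCH1 and the GLI factors. Of 14 genes of this pathway 10 lay below wild type, at a median of -0.17, which was -0.11 without wild type 1. Of them 5 were without overlap (6.43% of all probe sets) and 3 had an unadjusted p under 0.05 (3.04%). The ligand genes lay above 0, with 0.11 ± 0.12 for Ihh, 0.05 ± 0.08 for Dhh and 0.16 ± 0.10 for Shh, all with overlap. Ptch1 read 2031, 2359.7 and 2380.2 in the heterozygotes, against 2722, 2484 and 2875 in the wild types (-0.26 ± 0.08). Gli3 read 160.4, 181 and 144, against 225, 209.7 and 184 (-0.35 ± 0.11). The groups did not overlap at either gene. Hhip, a decoy receptor, stood at -0.31 ± 0.15 and Gli1, the usual target gene, at -0.13 ± 0.12.

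Genes of TFIID and of TBP relatives, the complex that TAF4B belongs to, stood at a median of -0.09, with 15 of 20 below wild type and 4 without overlap (6.43% of all probe sets). Taf9b, a TFIID subunit gene, read 521, 615 and 615 in the heterozygotes, against 777, 733 and 645 in the wild types (-0.30 ± 0.10). Taf3 read 591, 618 and 618, against 698, 662 and 676 (-0.16 ± 0.06), and Taf5 read 268, 267 and 265, against 296, 297 and 288 (-0.14 ± 0.05). Every heterozygote lay below every wild type at these 3 genes. Tbp, the TATA-binding protein gene, stood at -0.13 ± 0.06, and Taf4, the widely expressed paralogue of Taf4b, at -0.12 ± 0.08 with overlap. The median was -0.06 without heterozygote 1 and ranged from -0.12 to -0.04 when single arrays were left out.

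Lists of general cell functions stayed within 0.10 of 0 with all 3 heterozygotes. Cytosolic ribosomal proteins stood at 0.01, nuclear genes of the respiratory chain at 0.01, mitosis at -0.02 and the ovulation response at 0.05, against 0.00 for all tested probe sets. Without heterozygote 1 the respiratory chain genes stood at -0.02, with 22 of 30 below wild type, against 10 of 30 below with it. DNA replication genes stood at -0.06, with 18 of 22 below wild type. Of them 5 were without overlap (6.43% of all probe sets) and 3 had an unadjusted p under 0.05 (3.04%). Without heterozygote 1 the list stood at -0.13, with 21 of 22 below. Uhrf1, which guides DNMT1 to new DNA and is also abundant in oocytes, read 1741, 1777 and 1643 in the heterozygotes, against 2273, 1988 and 2076 in the wild types (-0.29 ± 0.11). The other members free of overlap, Mcm3, Mcm5, Mcm10 and Cdc6, stood between -0.17 and -0.08.

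Cholesterol synthesis and uptake genes stood at 0.08, with 22 of 24 above wild type, 3 without overlap (4.13% of all probe sets) and 1 with an unadjusted p under 0.05 (2.71%). Mvk, the mevalonate kinase gene, read 342, 344 and 336 in the heterozygotes, against 306, 309.6 and 315 in the wild types (0.14 ± 0.05). Idi1 and Cyp51, later enzymes of the pathway, stood at 0.34 ± 0.21 and 0.26 ± 0.16 with overlap, and wild type 1 was the lowest of the 6 arrays at both. The list mean was 0.08, 0.17 and 0.03 above the wild-type mean in the heterozygotes, against -0.03, 0.01 and 0.02 in the wild types.

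Immediate early genes, which respond within minutes to handling and hormones, separated heterozygote 1 from its group. Their mean difference from the wild-type mean was -0.10, 0.17 and 0.18 in heterozygotes 1, 2 and 3, against -0.09, 0.04 and 0.05 in wild types 1, 2 and 3. Mouse 1 was thus the lowest in both genotypes. Over the list, 16 of 20 genes lay above wild type at a median of 0.07, and without heterozygote 1 the median was 0.17. Heat shock and unfolded protein genes ran the other way within the heterozygotes, at 0.11, -0.06 and -0.22, against -0.07, -0.04 and 0.11 in the wild types, and their median was -0.04, or -0.12 without heterozygote 1.

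The fat, stromal and endothelial lists also had medians below wild type, and none of their genes passed the adjusted p. Fat cell genes stood at a median of -0.10, with 12 of 20 below wild type and 8 above. Free of overlap were 4 below (6.43% of all probe sets) and 1 above (4.13%). An unadjusted p under 0.05 was seen at 5 below (3.04%) and 0 above (2.71%). Their summed intensity was 5860, 5020 and 5743 in the heterozygotes, against 6450, 6509 and 6361 in the wild types. Car3, an abundant carbonic anhydrase of fat, read 782, 408 and 552 in the heterozygotes, against 946, 1169 and 980.0 in the wild types (-0.87 ± 0.21). Adipoq, for adiponectin, read 119.5, 58.3 and 72.3, against 133, 133 and 144 (-0.78 ± 0.21). Cfd, for adipsin, read 402, 184 and 163, against 699.5, 462 and 437 (-1.18 ± 0.34). Heterozygote 1 was the highest heterozygote at all 3, none overlapped, and without heterozygote 1 the differences were -1.11, -1.07 and -1.59.

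Fabp4, a fatty acid carrier, read 184, 106 and 114 in the heterozygotes, against 177, 195 and 184 in the wild types (-0.51 ± 0.22). Cidec, a lipid droplet gene, read 172, 96.03 and 99.9, against 207, 165 and 173 (-0.61 ± 0.21). At both, heterozygote 1 lay among the wild types while heterozygotes 2 and 3 lay below every wild type, and without heterozygote 1 the differences were -0.76 and -0.88. Among the other fat genes Lpl, Lipe and Pparg stood at -0.07 ± 0.06, -0.10 ± 0.10 and 0.22 ± 0.28 with overlap. In the authors' deposited table the fold of wild type over heterozygote was 2.13 for Cfd, 1.78 for Car3 and 1.64 for Adipoq. Fat surrounds the ovary in mice, and whether the amount of attached fat differed between the dissections was not tested.

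Stromal collagen and matrix genes stood at a median of -0.12, with 17 of 23 below wild type, 5 without overlap (6.43% of all probe sets) and 6 with an unadjusted p under 0.05 (3.04%). Their summed intensity was 29823, 28860 and 28222 in the heterozygotes, against 33014, 31305 and 30779 in the wild types. Col6a3, a collagen chain gene, read 834, 871 and 815 in the heterozygotes, against 1064, 1037 and 1043 in the wild types (-0.32 ± 0.08), with the mice of each genotype close together. Dpt, for dermatopontin, read 578, 417 and 326, against 610.1, 652 and 607 (-0.54 ± 0.17), and Postn, for periostin, read 445, 278 and 244, against 435, 517 and 473 (-0.61 ± 0.19). At Postn heterozygote 1 lay within the wild types, whereas at Dpt and Col6a3 the groups did not overlap. Fbn1, for fibrillin, stood at -0.28 ± 0.10. The chain genes of the main fibrillar collagens stood at -0.18 ± 0.07 for Col1a1, and with overlap at -0.06 ± 0.07 for Col1a2 and -0.10 ± 0.06 for Col3a1.

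Endothelial genes stood at a median of -0.13, with 20 of 22 below wild type, 6 without overlap (6.43% of all probe sets) and 2 with an unadjusted p under 0.05 (3.04%). Robo4, an endothelial guidance receptor gene, read 136, 168 and 139 in the heterozygotes, against 189, 183 and 179.6 in the wild types (-0.32 ± 0.08). Eng, for endoglin, read 585, 568 and 555, against 692, 654 and 610.3 (-0.19 ± 0.07), also without overlap. Pecam1, a marker of all endothelium, stood at -0.14 ± 0.08 with overlap.

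The remaining marker lists lay within 0.10 of 0 by their medians over all 6 arrays. Macrophage genes stood at -0.07 with 17 of 22 below wild type, but at -0.13 with 19 of 22 below without heterozygote 1. The others were smooth muscle at 0.02, surface epithelium at 0.05, oviduct epithelium at 0.01, lymphocytes at -0.02, nerve at 0.01 and skeletal muscle at 0.08. In the surface epithelium list Msln, for mesothelin, read 176, 171 and 178 in the heterozygotes, against 140.2, 152 and 159 in the wild types (0.22 ± 0.06), while Bnc1, which oocytes express too, read 365, 354 and 384, against 549, 501 and 449.6 (-0.44 ± 0.16). Red cell genes were highest in heterozygote 1, with 7442, 4372 and 4969 for the globin gene Hba-a1, which has a near-identical copy, in the heterozygotes, against 6155, 5686 and 4813 in the wild types, and the groups overlapped. The red cell and platelet list had a median of 0.06, and of -0.05 without heterozygote 1.

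**Figure D4:**
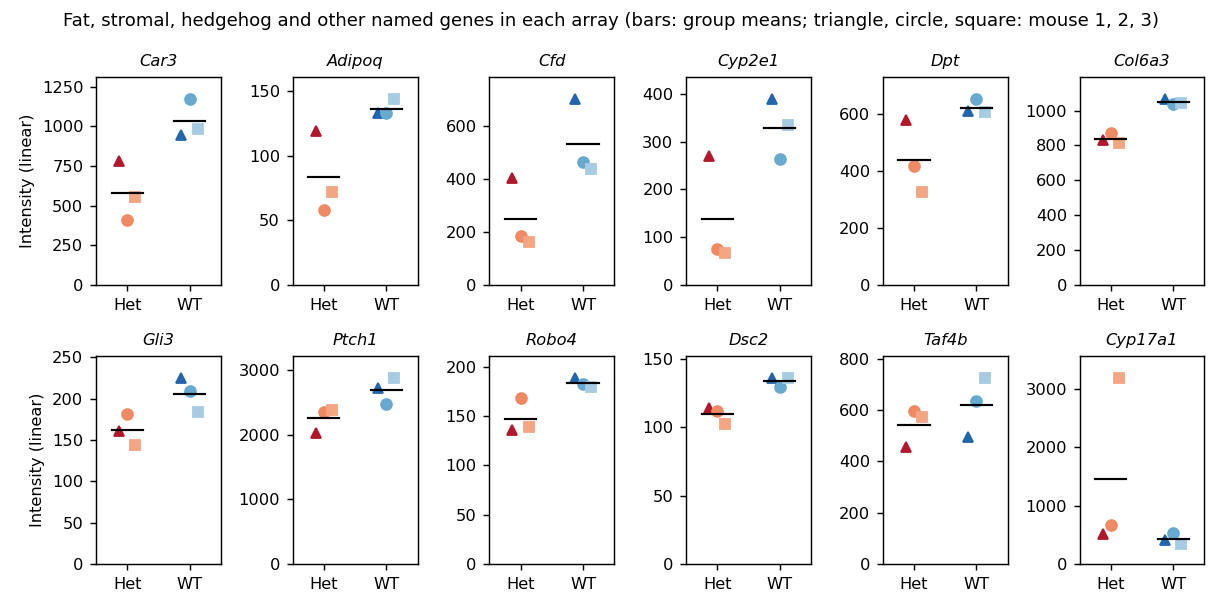
Linear intensity of 12 further genes in each array, heterozygotes left and wild types right, with mice 1, 2 and 3 as triangle, circle and square and the mean of 3 as a bar. Heterozygote 1 lies nearest to wild type at Car3, Adipoq, Cfd, Cyp2e1 and Dpt, heterozygote 3 alone is high at Cyp17a1, and Dsc2 and Col6a3 show little spread within a genotype.

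By unadjusted p, the genes below wild type that came first included some known from the germline or from early embryos. Ttc6 read 32.98, 30.7 and 31.3 in the heterozygotes, against 38.5, 41.8 and 38.6 in the wild types (-0.32 ± 0.06), the smallest p of the named genes, and Ablim3 stood at -0.35 ± 0.07. Zfp735, a zinc finger gene, read 116, 154 and 138, against 199, 199.9 and 193 (-0.55 ± 0.11). Xlr5b, of the X-linked Xlr family with near-identical copies, read 133, 118 and 116, against 179, 191 and 158 (-0.52 ± 0.11). Dppa2, a pluripotency factor gene, read 99.7, 104 and 96.7, against 143, 136 and 129 (-0.44 ± 0.10). The rule that named these genes took only genes whose groups did not overlap. Gsdmc2, Septin14, Tbc1d30, Slc24a3, Coro2b and Ceacam2 stood between -0.65 and -0.35.

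The genes with the smallest unadjusted p above wild type were mostly dim. Fpr3, a formyl peptide receptor gene, read 27.01, 26.8 and 25.8 in the heterozygotes, against 20.7, 20.6 and 23.3 in the wild types (0.31 ± 0.06), and Prss57, a granulocyte serine protease gene, read 28.3, 25.2 and 27.3, against 20.9, 21.8 and 22.5 (0.31 ± 0.06). H2-Q2, a class I histocompatibility gene with similar copies, read 106, 94.8 and 103, against 85.3, 79.5 and 73.1 (0.36 ± 0.08). Tmem151a was the brightest of the 15, with 222, 238 and 233, against 196, 196 and 200.1 (0.23 ± 0.05). The other 11, which were Loxhd1, Tnnc1, Cd3d, Tceal5, Gal, Ampd1, Acsm5, Haglr, Lrp8os2, Prss1 and Lrrk2, stood between 0.20 and 0.40, and their arrays did not overlap by the rule that named them.

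By size of difference among non-overlapping genes, the largest lower values were those of Cfd, Nlrp4e and Car3, given above, and of Ces1d at -0.81 ± 0.20. Ces1d, a carboxylesterase gene of liver and fat, read 66.4, 54.7 and 47.3 in the heterozygotes, against 128, 81.6 and 87.96 in the wild types. Serpina1c, Efhc2 and Zfp640 stood at -0.58 ± 0.17, -0.57 ± 0.27 and -0.56 ± 0.15. On the higher side were Mrgpra9 at 0.80 ± 0.24, Svs3b at 0.65 ± 0.23 and Cycs at 0.62 ± 0.18, all dim, with Mrgpra9 at 14.99, 17.5 and 23.5 in the heterozygotes, against 7.84, 11.3 and 13.3 in the wild types. Cycs, for cytochrome c, has several probe sets and many processed copies in the genome. Krtap5-2, Pramel39, Ccdc159, Slc25a2, Bex4 and Capn6 stood between 0.44 and 0.55. Heterozygote 1 was by far the highest array at Krtap5-2 and Pramel39, which stood at 0.30 and 0.17 without it. Of these genes Bex4 was bright, at 1657, 1811 and 1823, against 872, 1579 and 1482.

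Genes that lie next to Taf4b on chromosome 18 can be carried along with a mutant allele from its source strain. Of the 30 measured, 15 on each side, 18 lay below and 12 above wild type at a median of -0.01, 13 below and 17 above without heterozygote 1. An unadjusted p under 0.05 was seen at 1 of the 30, which is not above the 5.75% of all probe sets. That gene, Dsc2, for the desmosomal cadherin desmocollin 2, read 114, 112 and 102 in the heterozygotes, against 136, 129 and 136 in the wild types (-0.29 ± 0.06), without overlap. On the arrays labelled knockout it read 178, 175 and 188, above both groups. Its neighbours Dsc3 and Dsg2, other desmosomal cadherins, stood at 0.10 ± 0.08 and -0.12 ± 0.13 with overlap. Npc1 stood at -0.20 ± 0.10 and Psma8 at 0.19 ± 0.13.

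The values farthest above wild type on the array of heterozygote 1 were mostly those of small nucleolar RNA probe sets, many of them of the imprinted cluster on chromosome 7. These RNAs guide chemical modification of other RNAs, and those of this cluster are known for expression in brain. Of the 200 tested probe sets over 2-fold above the median of the other arrays, 36 were annotated as small nucleolar RNA, all in the MBII-52 and Snord116 groups, and 153 belonged to genes with several probe sets (76.5%). Among all 28266 probe sets, those without a symbol included, 113 lay over 8-fold above the highest wild-type array, 104 of them annotated as small nucleolar RNA, and the array of heterozygote 2 had 0 and that of heterozygote 3 had 0. The MBII-52 or Snord115 probe sets, 16 in number with 3 distinct sets of values, had medians of 147.4, 7.81 and 7.60 in the heterozygotes, against 7.94, 7.60 and 8.36 in the wild types. The Snord116 probe sets, 20 with 3 distinct sets of values, had medians of 249, 10.7 and 10.9, against 11.5, 10.8 and 17.1. Many of these probe sets share their values exactly and count as few measurements.

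Other annotated small nucleolar RNAs did not follow. Over 305 probe sets their medians were 54.2, 71.6 and 85.9 in the heterozygotes, against 54.8, 65.8 and 72.1 in the wild types. The protein-coding gene Snrpn, from whose locus the cluster is transcribed, read 282, 294 and 269 in the heterozygotes, against 279.7, 265 and 269.9 in the wild types. Ndn and Ube3a of the same region read 1376, 1288 and 1087 and 708, 818 and 774 in the heterozygotes, against 1409.5, 1367 and 1287 and 751, 750.1 and 823 in the wild types. Heterozygote 1 was not high at these neighbours. Nerve and Schwann cell markers stood at -0.02, -0.02 and -0.10 from the wild-type mean in the heterozygotes, against 0.04, 0.02 and -0.06 in the wild types, as a mean over 17 genes. All 39 of these 113 probe sets that carry a symbol belong to genes with several probe sets (100%, against 16.2% of all tested probe sets). Of the 39, 36 are the MBII-52 and Snord116 probe sets above. The rest are annotated to LOC100040985, with values like those of MBII-52. The share of 100% thus describes copies of the same few sequences, and these are not separate measurements. The part of repeated sequence in this excess was not tested.

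**Figure D5:**
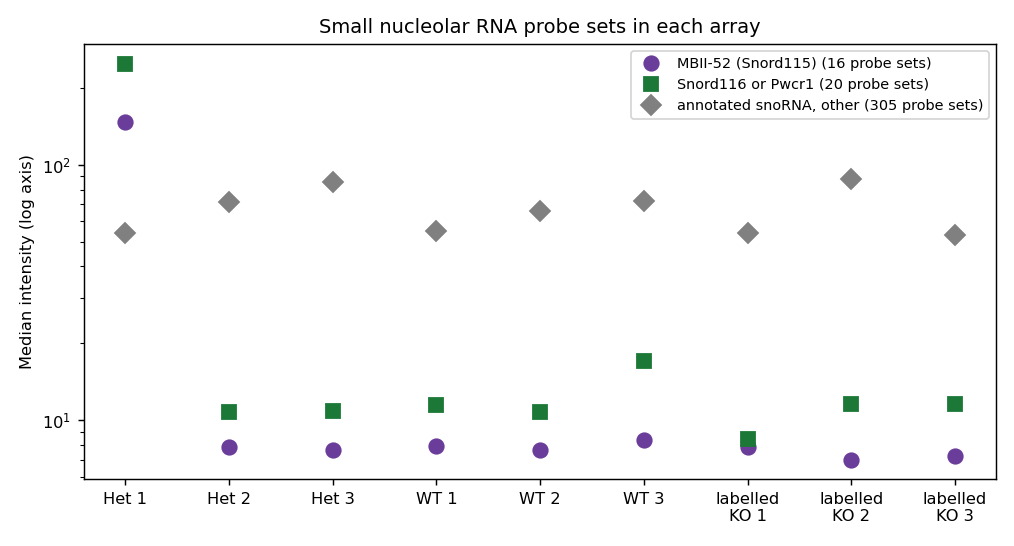
Median linear intensity, on a log axis, of MBII-52 probe sets (circles), Snord116 or Pwcr1 probe sets (squares) and other annotated small nucleolar RNA probe sets (diamonds) in each of the 9 arrays. The circles and squares of heterozygote 1 lie at 147.4 and 249, far above those of the other 8 arrays, and the diamonds of the same array do not.

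Outside this cluster, 10 named genes were farthest above heterozygotes 2 and 3 in heterozygote 1. Several belong to families of many copies, and where a gene had several probe sets the one farthest apart was taken. Btbd35f1 read 58.4, 10.1 and 10.7 in the heterozygotes, against 10.6, 9.999 and 10.6 in the wild types, and Dux, the repeated homeobox gene of early embryos, read 204, 81.5 and 80.9, against 82.9, 82.5 and 82.5. Mup2, Mup10, Spin2d, Csprs, Speer1 and Jpt2 showed the same picture, with heterozygote 1 above all other 5 arrays. At Mup10 the array labelled knockout 2 was as high, at 36.0, against 34.9 in heterozygote 1. At Cyp2e1 and Akr1c18 heterozygotes 2 and 3 lay below every wild type. Cyp2e1, a cytochrome P450 gene of liver and fat, read 269, 76.4 and 66.3, against 388, 263 and 334 (-1.55 ± 0.49), and -2.19 without heterozygote 1. Akr1c18, which inactivates progesterone, read 311, 114 and 109, against 276, 163 and 237.

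Of the 10 genes on the lower side of heterozygote 1, Snhg1, Gas5, Taf1d and Ncl host small nucleolar RNAs in their introns. They have 5, 4, 5 and 3 probe sets, and the values here are those of the probe set farthest apart. Whether that probe set reads the host transcript was not tested, and the other probe sets are not shown. Snhg1 read 112, 240.5 and 484 in the heterozygotes, against 133, 289 and 247 in the wild types, and Gas5 read 46.3, 113 and 161, against 31.7, 111 and 141. In both genes mouse 1 was the lowest of the heterozygotes and of the wild types. The arrays labelled knockout read 114, 442 and 101 at Snhg1 and 44.3, 203 and 40.4 at Gas5. At Taf1d they read 218, 802 and 218, against 244 in heterozygote 1, and at Ncl 34.5, 95.4 and 28.1, against 31.4. At these 4 genes the arrays labelled knockout 1 and 3 were thus about as low as heterozygote 1. Slc38a3, a glutamine carrier gene, had the same order, with 363, 1117 and 1218, against 299, 669.6 and 992. Bmp2, a granulosa growth factor gene, read 144, 358 and 342, against 162, 214 and 239, where heterozygote 1 was lower than every wild type and heterozygotes 2 and 3 were higher. The arrays labelled knockout were higher too, at 305, 377 and 256. Tra2a, Ncl, Nedd4 and Adamts6 were lowest of the 6 arrays in heterozygote 1 too.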

How the data were processed

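Per the series' design text, each of 9 arrays took 300 ng of ovarian RNA, and the authors obtained each intensity with RMA-Sketch in Affymetrix Expression Console 1.1. The range of the deposited intensity values is that of a linear scale, and their log2 was taken here without a pseudocount. The authors' deposited table for this pair of genotypes also gives, per the file headers, a ratio (fold, wild type over heterozygote) and a p-value. That p-value is under 0.05 at 1146 tested probe sets. Arrays were grouped and numbered by title, and 0 value columns were left unmapped. The other deposited comparison tables were not used.

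Of 28266 probe sets, 24949 had 1 gene symbol, 151 had several and 3166 had none. The last were left out of the tests. A spreadsheet had turned 26 symbols into dates, which were restored from the description except for 1 that stayed without a name. Names were updated from RefSeq, GRCm38.p6, through 18712 accessions, 2208 symbols and 1751 synonyms, and 2277 kept the name in the file. Brain-type small nucleolar RNA probe sets were identified by the description in the file.

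Differences were tested with limma 3.58.1 in R 4.3.3, in 1 model over all 9 arrays with eBayes and Benjamini-Hochberg adjustment over 25100 probe sets, two-sided. Every p above, unless called exact, comes from that fit, and other tables were made in Python 3.11.15. The fit was tested on 5 simulated data sets with 200 changed probe sets each. Each of 37 gene lists took the brightest probe set per gene. The members and lists were chosen with earlier results of these data known. Of the listed genes, 8 names matched no probe set, among them Obox1, Fbxw14 and Rhox5.

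Genes were named by rule. The rule took Taf4b, the 15 smallest p and the 10 largest differences in each direction among non-overlapping genes with 1 symbol, leaving out predicted genes and clones, the 10 genes in each direction farthest apart between heterozygote 1 and the other 2 heterozygotes, 5 members of each list by p, and the defining members of lists. Outside it, and chosen after their values were seen, are Inha, Inhba, Ccnd2, Jun, Hsd17b1, Mcm3, Mcm5, Obox5, Sohlh2, Tdrd6, Piwil4, Pld6, Taf4, Ihh, Shh, Gli1, Lpl, Lipe, Pparg, Dsc3, Dsg2, Snrpn, Ndn and Ube3a.

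Alternatives were array weights, trend and robust eBayes, an equal-variance test on linear values, log2(intensity + 16), median centring, quantile normalization, the dimmest 25% left out, the mean of a gene's probe sets, the 6 arrays alone, a replicate block and each array left out. The 6 arrays alone without heterozygote 1 were added after seeing the data. The number of arrays limits the precision.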

Additional observations from a re-analysis of the deposited data

Results flagged for a closer look

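Probe sets without a gene symbol entered no test of the genotypes. They make up 74 of the 113 described above that lay over 8-fold above the highest wild-type array on the array of heterozygote 1. They are a signal outside the tested data that the wild-type arrays lack.

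A further probe set without a symbol, 10582888, annotated to chromosome 9, read 4775, 98.2 and 238 in the heterozygotes, against 9.67, 102 and 1262 in the wild types and 10.9, 84.8 and 24.4 on the arrays labelled knockout. It was the highest value of heterozygote 1 among such probe sets relative to its group, and it also stood high in wild type 3. The annotation gives no gene for it.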

How the results depend on the processing

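Under every alternative run, 0 probe sets passed an adjusted p of 0.05, and the smallest adjusted p lay between 0.0761 (without heterozygote 1) and 0.975 (without wild type 1), by limma or, at 0.171, by the equal-variance test on linear values. The count at an unadjusted p under 0.05 was 2211 with array weights and ranged from 911 (without wild type 1) to 1878 (without the array labelled knockout 2) with 1 array left out. Non-overlapping probe sets numbered 4515 after median centring and 4474 to 5661 with 1 array left out, where fewer arrays make separation easier. The share of lower among them by p was 52.8%, but 32.1% after median centring, 66.7% by the linear test, 64.6% with the 6 arrays alone, 63.7% without the array labelled knockout 2 and 39.6% without wild type 1, and the cause was not tested. The median of all probe sets moved by at most 0.03. The oocyte median stayed between -0.38 and -0.22. The hedgehog median was -0.11 without wild type 1, and -0.20 to -0.11 with 1 array left out. The TFIID median was -0.061 with array weights, -0.063 with median centring, -0.058 with quantile normalization, -0.056 with the dimmest 25% left out and -0.059 with the 6 arrays without heterozygote 1, and -0.122 to -0.035 with 1 array left out. Figla changed sign, to 0.019 without heterozygote 2 and 0.058 without wild type 1, within -0.159 to 0.058 with 1 array left out. Over all lists and alternatives, 697 recomputed medians moved by less than the spread between mice and 25 by more; medians near 0 can change sign. Same-numbered mice of the genotypes correlated at 0.07, 0.08 and 0.03 in their deviations, and differently numbered mice at -0.113 to 0.093. With 3 mice per genotype such weak correlations cannot decide whether the numbers pair the mice. With a replicate block, 0 passed and 708 lower and 764 higher had an unadjusted p under 0.05, 1472 in all.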
